A study of Homo sapiens with 8 samples.

Results

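The genes described here make, salvage and break down deoxynucleotides, and several of them set how much of the leukaemia drug cytarabine becomes active inside a cell. The 8 genes were chosen by symbol from the array's annotation. They were RRM1, RRM2 and RRM2B (ribonucleotide reductase), TYMS and TK1 (thymidylate), and DCK, CDA and SAMHD1 (cytarabine). Of these, 7 had a named probe set, out of 14884 genes named on the array, and each had a single one. TK1, a thymidine kinase of dividing cells, had no named probe set and was not measured here.

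MOLM-14 is an established human acute myeloid leukaemia line. All cells carried a short hairpin RNA and received doxycycline for 72 h to express it. In the shCD39 group (4 arrays) the hairpin was directed at ENTPD1, which encodes the cell-surface ectonucleotidase CD39, and in the shCTRL group (4 arrays) it was a scrambled sequence. The series sought genes whose expression depends on CD39. A single hairpin against ENTPD1 was used, an untreated group was not analysed here, and the labels name all arrays of a group technical replicates, so that p-values reflect how far these arrays differ, which may be technical only.

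Ribonucleotide reductase turns ribonucleotides into deoxyribonucleotides and limits the rate at which DNA precursors are made. Its large subunit is RRM1; the small subunit is either RRM2, which is made in S phase and degraded in late mitosis, or RRM2B (p53R2), which is induced by p53 and supplies deoxynucleotides outside S phase. Thymidylate synthase (TYMS) makes dTMP from dUMP. Cytarabine, a deoxycytidine analogue, is activated by a first phosphorylation through deoxycytidine kinase (DCK), is inactivated by cytidine deaminase (CDA), and its triphosphate is hydrolysed by SAMHD1, which also degrades normal deoxynucleotides. RRM1, RRM2, TYMS and TK1 are known targets of the E2F factors that drive entry into S phase.

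The 4 genes whose means were lower in shCD39 are shown here by the 250 bases before their start sites, because E2F-type and CCAAT letters are common in promoters of genes used in S phase. Sequences are from RefSeq (GRCh38.p14, plus strand, 5′ to 3′), and for RRM2, which has 2 listed starts, the one listed first was used. Capitals mark CCAAT and E2F-type letters, which were TTCCCGC or else TTGGCGC or else TTCGCGC, searched on both strands, and no marked match overlapped another.
RRM1, chr11:4094435-4094684: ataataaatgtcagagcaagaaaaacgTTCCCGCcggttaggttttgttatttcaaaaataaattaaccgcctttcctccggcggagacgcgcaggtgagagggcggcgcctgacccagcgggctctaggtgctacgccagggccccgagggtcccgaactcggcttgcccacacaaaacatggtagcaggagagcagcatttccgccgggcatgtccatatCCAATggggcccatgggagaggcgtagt
RRM2, chr2:10122489-10122738: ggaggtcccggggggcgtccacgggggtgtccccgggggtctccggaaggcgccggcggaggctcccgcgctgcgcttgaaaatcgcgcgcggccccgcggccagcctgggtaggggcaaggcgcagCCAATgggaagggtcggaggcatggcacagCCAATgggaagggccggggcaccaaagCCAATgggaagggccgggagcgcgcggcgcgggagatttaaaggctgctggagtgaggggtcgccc
TYMS, chr18:657403-657652: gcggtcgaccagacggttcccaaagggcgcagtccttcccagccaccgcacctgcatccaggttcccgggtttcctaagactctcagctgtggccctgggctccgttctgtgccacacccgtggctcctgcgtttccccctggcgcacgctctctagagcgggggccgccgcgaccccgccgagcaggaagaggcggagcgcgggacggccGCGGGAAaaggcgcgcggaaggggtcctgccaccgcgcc
DCK, chr4:70993399-70993648: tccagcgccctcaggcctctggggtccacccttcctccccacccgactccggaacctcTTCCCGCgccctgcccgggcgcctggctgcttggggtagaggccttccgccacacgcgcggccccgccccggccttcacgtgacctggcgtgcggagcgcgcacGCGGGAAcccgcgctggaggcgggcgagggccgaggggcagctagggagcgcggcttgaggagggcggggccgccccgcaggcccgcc

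The RRM2 window held 3 CCAAT matches, which began 123, 93 and 66 bases before the start, and none of the E2F-type letters. DCK held 2 E2F-type matches, RRM1 one of each kind and TYMS 1 E2F-type match that began 39 bases before the start. Of 35116 windows of the same length, 9.32% held E2F-type letters, 32% held CCAAT and 2.81% held CCAAT at least 3 times. The corresponding window of CDA had neither kind, and that of SAMHD1 had 2 CCAAT matches. The window of RRM2B was not among those examined. The GC content of the printed windows ran from 56.4% (RRM1) to 78% (DCK), against a median of 58% over all windows. A match of letters is a description of the sequence and not evidence of binding. The printed windows were chosen by the direction of the means in these data, though none of these genes passed the threshold over all arrays. A link between the letters and expression was not tested.

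ENTPD1, the gene targeted by the hairpin, gave log2 values of 2.42, 2.14, 2.72 and 2.95 on shCD39 arrays 1 to 4, against 3.16, 2.88, 3.21 and 4.12 in shCTRL. It averaged 2.56 ± 0.35 (log2, mean ± SD, n = 4) in shCD39 against 3.34 ± 0.54 in shCTRL, a lower mean that did not pass the threshold. The log2 fold change was -0.79 (limma adjusted p = 0.178). It was -0.92 without shCD39 array 4 (limma adjusted p = 0.0856) and -0.53 without shCTRL array 4 (limma adjusted p = 0.233). ENTPD1 was a dim signal, with a mean of 2.95 over all arrays, below the array medians (3.13 to 3.17 over all probe sets). Its change therefore gives no firm measure of the hairpin's effect. The shCD39 array 4 stood apart: it had a mean correlation over all genes of 0.9845 with its own group and 0.9892 with shCTRL, whereas the other 7 arrays correlated more with their own group, so results are also given without it. Of 15 myeloid markers 9 were measured; the deposited values carry no detection call, so none can be called present or absent from its level.

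The deposited values are log2 expression after RMA, so a difference of 1 is 2-fold, and differences are relative to the bulk of the array. A gene was called at a limma p-value adjusted by Benjamini-Hochberg over all 14884 genes under 0.05. In all, 14 genes or 0.0941% were called, 0.047% in each direction; 50% of the calls were higher as deposited, 66.7% after quantile normalization, 72.7% after cyclic loess and 38.9% after median centring. Leaving out single arrays gave 0 (without shCTRL array 1) to 423 genes (without shCD39 array 4), and 3 to 6 without shCD39 arrays 1, 2 or 3 or shCTRL arrays 2 or 3, and 48 without shCTRL array 4.

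Of the 7 measured genes, RRM2B rose, and no other passed. RRM1, RRM2, TYMS and DCK had lower means in shCD39, and CDA and SAMHD1 had higher means. In bulk RNA, fewer cells in S phase and less RNA per cell cannot be told apart. The median log2 fold change over the 7 was -0.33, against 0.01 over all genes. At an unadjusted p under 0.05, 4 of the 7 were lower and 1 higher, where 8.13% and 6.54% of all genes were. The count of calls turned on single arrays. Without shCD39 array 4, RRM2B rose and RRM2, TYMS and DCK fell, while 2.84% of all genes were called, 0.746% higher and 2.1% lower. That array was singled out for lying near shCTRL, so these calls do not add to the result over all arrays. Without shCTRL array 1 limma called 0 of the 7, and 0 of all genes (10.6% at an unadjusted p under 0.05), and 5 of the 7 had an unadjusted p under 0.05.

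**Figure D1:**
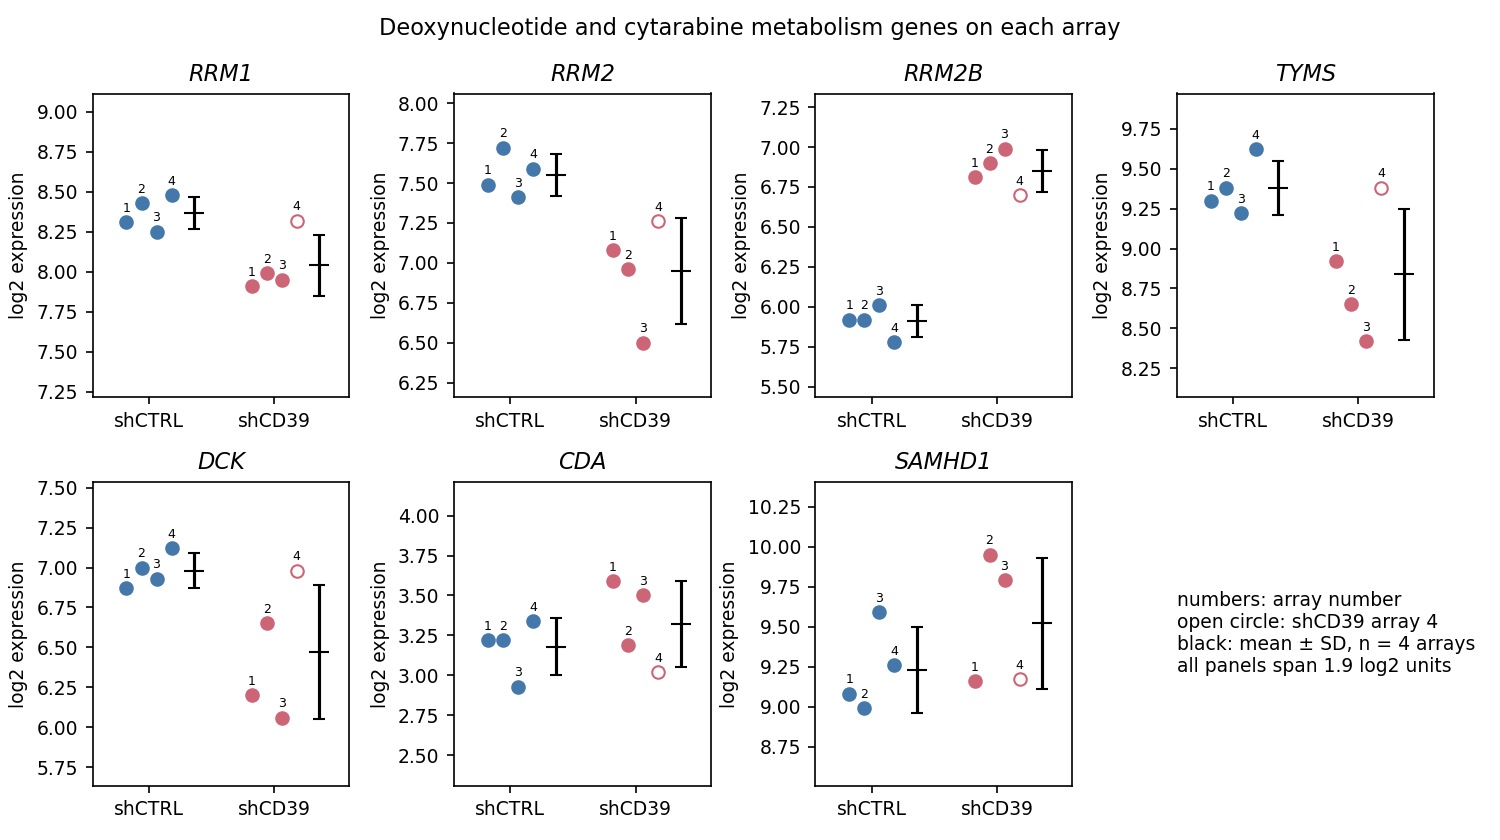
Log2 expression of the 7 measured genes on each array (points, numbered by array; open circle, shCD39 array 4), with mean ± SD of 4 arrays a group in black; every panel spans 1.9 log2 units. RRM2B and RRM2 separate the groups, and in RRM1, TYMS and DCK the open circle lies among the shCTRL arrays.

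RRM2B (probe set 17079808) rose 1.92-fold. In log2 units, arrays 1 to 4 of shCD39 gave 6.81, 6.90, 6.99 and 6.70, and those of shCTRL gave 5.92, 5.92, 6.01 and 5.78. The groups lay apart, with every shCD39 array above every shCTRL array, shCD39 array 4 included. The log2 fold change was 0.94 (SE 0.11, 95% confidence interval 0.70 to 1.18, limma adjusted p = 0.00993). It ranked 3 of 14884 genes by p-value and 57 by the size of the change. The exact permutation p was 0.0286, the smallest that 4 against 4 arrays allow. Leaving out any 1 array gave log2 fold changes from 0.89 to 0.99, the highest without shCD39 array 4 (limma adjusted p = 0.00456). The call was lost without shCTRL array 1 (0.94, adjusted p = 0.0656) and when all probe sets, named or not, were tested (adjusted p = 0.0505).

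RRM2 (probe set 16877019), the S-phase small subunit, had the lowest log2 fold change of the 7. Its shCD39 values were 7.08, 6.96, 6.50 and 7.26 on arrays 1 to 4, against 7.49, 7.72, 7.41 and 7.59 in shCTRL. The groups did not overlap here either, which was so for 2 of the 7 genes (1 higher, 1 lower) and for 7.85% of all genes (3.61% higher, 4.23% lower); array 3 was the lowest and array 4 the nearest to shCTRL. The mean was 1.52-fold lower (log2 fold change -0.60, SE 0.16, interval -0.95 to -0.26) but did not pass over all genes (limma adjusted p = 0.12). Without shCD39 array 4 RRM2 fell by 0.71 (SE 0.15, limma adjusted p = 0.0381).

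RRM1 (probe set 16721126), the large subunit that pairs with either small subunit, showed the smallest difference of the 4 lower genes. Arrays 1 to 3 of shCD39 read 7.91, 7.99 and 7.95, close together and below the shCTRL arrays at 8.31, 8.43, 8.25 and 8.48. The shCD39 array 4 read 8.32, inside the shCTRL range, so the groups overlapped. The log2 fold change was -0.33 (SE 0.12, interval -0.59 to -0.06, limma adjusted p = 0.236), and -0.42 without that array (limma adjusted p = 0.0657).

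Since RRM2B and RRM2 are alternative partners of RRM1, their difference was taken within each array. RRM2B minus RRM2 was -0.28, -0.06, 0.50 and -0.56 log2 units in shCD39 arrays 1 to 4 and -1.57, -1.80, -1.40 and -1.81 in shCTRL. Only the shift between groups can be read, since levels of different probe sets are not comparable. The shift was 1.54 log2 units, or 2.92-fold, from -1.64 ± 0.20 to -0.10 ± 0.45 (n = 4 each, exact permutation p = 0.0286, the smallest possible). The groups were 0.84 apart at their nearest arrays, and the shift was 1.35 to 1.70 when single arrays were left out. Each gene alone already separated the groups, in opposite directions, so their difference had to separate them too. The p-value was thus fixed by those results, with or without shCD39 array 4, and adds no support to them. The difference gives only the size of the shift.

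**Figure D2:**
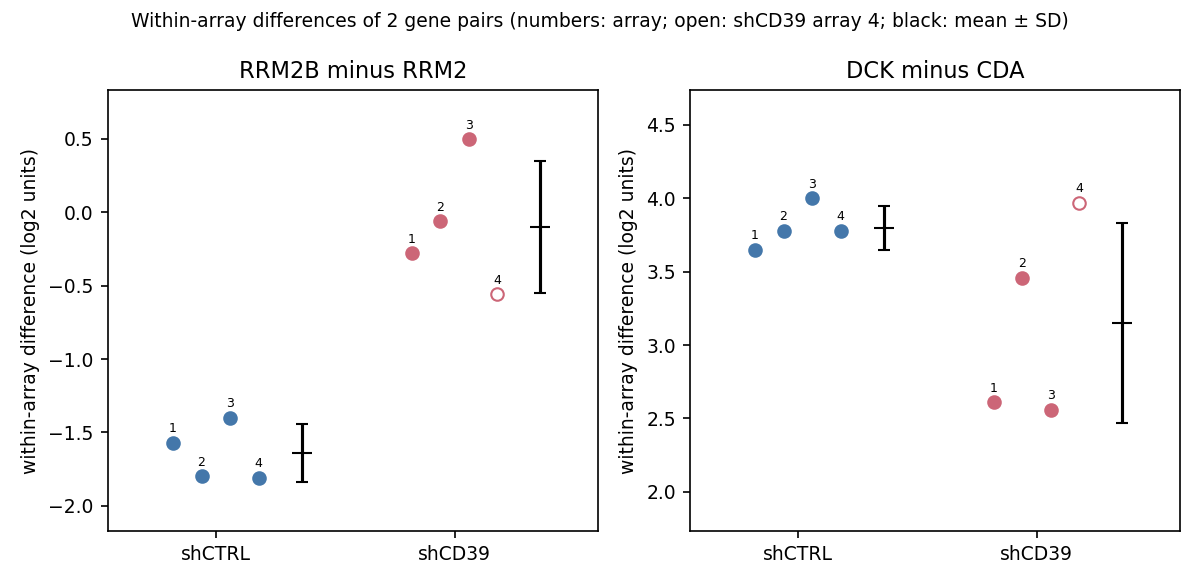
Within-array log2 differences of RRM2B minus RRM2 (left) and DCK minus CDA (right) on each array, numbered by array, with mean ± SD of 4 arrays in black; both panels span the same number of log2 units. The groups lie 0.84 apart on the left, while on the right shCD39 array 4 (open circle, 3.97) lies among the shCTRL arrays.

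TYMS (probe set 16850477) followed RRM2 in size. Its log2 values were 8.92, 8.65, 8.42 and 9.38 in shCD39, against 9.30, 9.38, 9.22 and 9.62 in shCTRL. Arrays 1 to 3 lay below all shCTRL arrays and array 4 inside their range. The log2 fold change of -0.54 (SE 0.19, interval -0.94 to -0.13) did not pass (limma adjusted p = 0.211, exact permutation p = 0.114). Without shCD39 array 4 TYMS fell by 0.72 (limma adjusted p = 0.0316), a mean 1.64-fold lower.

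DCK (probe set 16967614), the kinase that activates cytarabine, spread widely within shCD39. Its values there were 6.20, 6.65, 6.06 and 6.98, an SD of 0.42 (0.41 for both TYMS and SAMHD1), whereas shCTRL read 6.87, 7.00, 6.93 and 7.12, an SD of 0.11. Arrays 1 and 3 were the lowest, array 2 was intermediate, and array 4 lay inside the shCTRL range. The log2 fold change was -0.51 (SE 0.18, interval -0.91 to -0.11, limma adjusted p = 0.224), or without shCD39 array 4 DCK fell by 0.68 (limma adjusted p = 0.0414).

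CDA (probe set 16660360), which inactivates cytarabine, was a dim signal, with a mean of 3.25 over all arrays. It read 3.59, 3.19, 3.50 and 3.02 in shCD39 and 3.22, 3.22, 2.93 and 3.34 in shCTRL. Arrays 1 and 3 of shCD39 lay above the shCTRL range, and arrays 2 and 4 inside it. The log2 fold change of 0.15 (SE 0.15) had an interval from -0.18 to 0.47 (limma adjusted p = 0.71), which spans both directions. Leaving out shCD39 array 1 or shCTRL array 3 gave 0.06, and leaving out shCD39 array 4 gave 0.25.

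The within-array difference DCK minus CDA was 2.61, 3.46, 2.56 and 3.97 in shCD39. In shCTRL it was 3.65, 3.78, 4.00 and 3.78. The groups overlapped through array 4 of shCD39. The shift of -0.65 log2 units did not pass an exact permutation test (p = 0.114). Without that array it was -0.93 (exact permutation p = 0.0286, the smallest that 3 against 4 arrays allow). That array was singled out for its likeness to shCTRL, so this p-value adds no support. With any other array left out the shift was -0.76 to -0.46 (exact permutation p from 0.171 to 0.257). CDA lay near the array medians (3.13 to 3.17 over all probe sets) and was not kept by the filter on dim genes, so the difference gives no measure of the inactivating step.

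SAMHD1 (probe set 16919022), the triphosphohydrolase that degrades the active form of the drug, had split values. In shCD39, arrays 2 and 3 read 9.95 and 9.79, above every shCTRL array, and arrays 1 and 4 read 9.16 and 9.17. The shCTRL arrays read 9.08, 8.99, 9.59 and 9.26. The log2 fold change was 0.29 (SE 0.20, interval -0.15 to 0.72, limma adjusted p = 0.558). Leaving out single arrays moved it between 0.14, when shCD39 array 2 was dropped, and 0.41, when it was shCTRL array 3. It was 0.40 without shCD39 array 4.

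**Figure D3:**
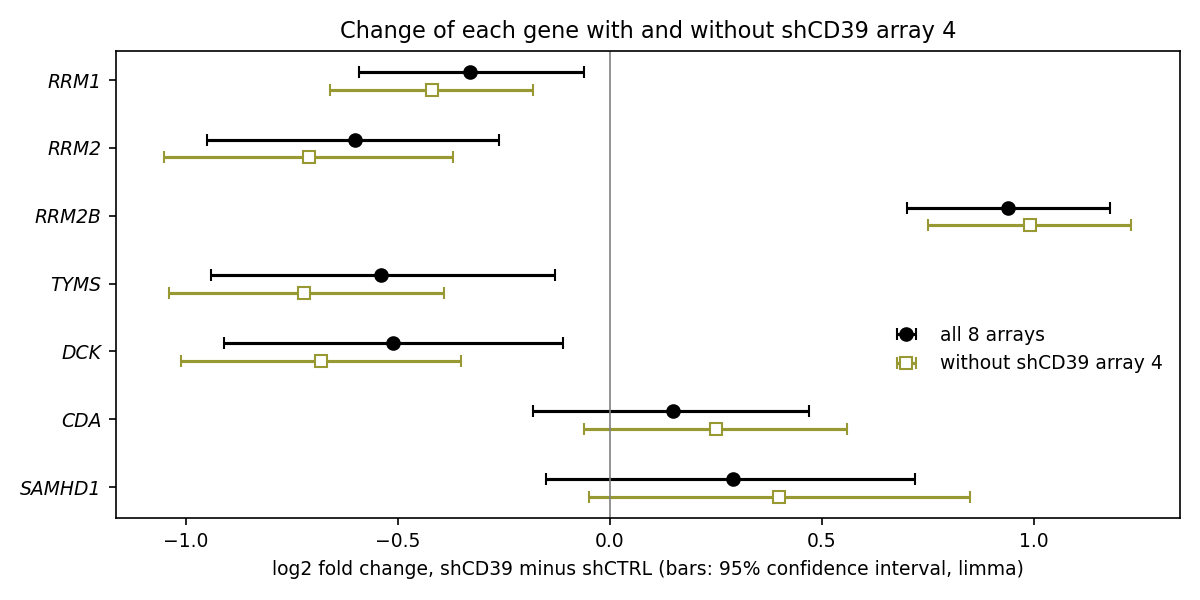
Log2 fold change, shCD39 minus shCTRL, of the 7 genes with 95% confidence intervals from limma, over all 8 arrays (black circles) and without shCD39 array 4 (open squares). RRM2B stands at 0.94 and 0.99, and RRM1, RRM2, TYMS and DCK each move farther from 0 without that array.

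In 5 of the 7 genes shCD39 array 4 read within the range of the shCTRL arrays, the exceptions being RRM2B and RRM2. With the other 3 shCD39 arrays alone, the groups did not overlap in 5 genes, 4 lower and 1 higher, where 17% of all genes did not overlap, 9.49% lower and 7.46% higher. As a deviation from the shCTRL mean, array 4 stood at 0.79 for RRM2B, against 0.90 to 1.08 in the other shCD39 arrays, and at 0.00 for both DCK and TYMS.

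The other genes of nucleotide metabolism were taken from 7 lists by role, with 110 genes in all, of which 66 were measured. None passed the threshold by limma, though 24 had an unadjusted p under 0.05, 22 of them lower; over all genes 14.7% had such a p and 0.0941% passed. Their median log2 fold change was -0.13, with 46 lower and 20 higher means. Without shCD39 array 4, 7 fell and 1 rose, where 2.1% of all genes fell and 0.746% rose. Without shCTRL array 4, 2 fell, SHMT2 and MYC, where 0.228% of all genes did.

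Genes around thymidylate and folate resembled TYMS in direction. Of 8 measured genes of 15, 7 had lower means, with a median of -0.29. SHMT2, which provides one-carbon units from serine in mitochondria, stood at -0.84 (SE 0.17, limma adjusted p = 0.0783). MTHFD1L, which releases formate from mitochondria, stood at -0.71 (SE 0.15, limma adjusted p = 0.0877). Both fell without shCD39 array 4, by 0.97 and 0.85.

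De novo synthesis of nucleotides had 13 measured genes of 16, of which 11 had lower means (median -0.30). PFAS, an enzyme of purine synthesis, averaged 7.34 ± 0.13 with the CD39 hairpin against 7.87 ± 0.06 with the control hairpin (n = 4 each, log2 fold change -0.53, limma adjusted p = 0.0783). GMPS, which makes GMP, stood at -0.48 (limma adjusted p = 0.172). Both fell when shCD39 array 4 was left out, by 0.54 and 0.62.

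Salvage and breakdown genes had medians near 0. The kinases that act beside DCK had a median of -0.02 over 12 measured genes of 21, with 8 lower and 4 higher means; DTYMK, which phosphorylates dTMP, the product of TYMS, stood at -0.37 (SE 0.11, limma adjusted p = 0.157) with groups that did not overlap, and UCKL1, a uridine-cytidine kinase homologue, at -0.21. Enzymes of nucleoside breakdown had higher means in 8 of 10 measured genes of 20, with a median of 0.07. Among them adenosine deaminase (ADA) stood at 0.50 (SE 0.13, limma adjusted p = 0.131). ADA rose without shCD39 array 4 (0.58, limma adjusted p = 0.0421). DPYD, which degrades pyrimidines, stood at 0.26 (limma adjusted p = 0.67). Its shCD39 arrays read 7.50, 6.43, 7.53 and 6.53, on both sides of the shCTRL range (6.59 to 6.88). Hydrolases that clean the nucleotide pool had a median of 0.00 over 7 of 8, with NUDT1, which removes oxidised purine nucleotides, at -0.32 and NUDT16 at 0.31. Of 12 nucleoside transporters and drug efflux pumps, 0 had a named probe set, so uptake of cytarabine was not analysed here.

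Regulators of the deoxynucleotide supply, namely the ATR and CHK1 checkpoint, cyclin-dependent kinases and E2F factors, had lower means in 15 of 16 measured genes of 18, with a median of -0.44. CHEK1, the checkpoint kinase that limits origin firing, averaged 5.97 ± 0.53 in shCD39 against 6.85 ± 0.10 in shCTRL (n = 4 each, log2 fold change -0.87, SE 0.21, limma adjusted p = 0.109). WEE1, which restrains CDK1 and CDK2, stood at -0.65 (limma adjusted p = 0.195). Without shCD39 array 4, CHEK1, WEE1 and CDK1 fell.

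**Figure D4:**
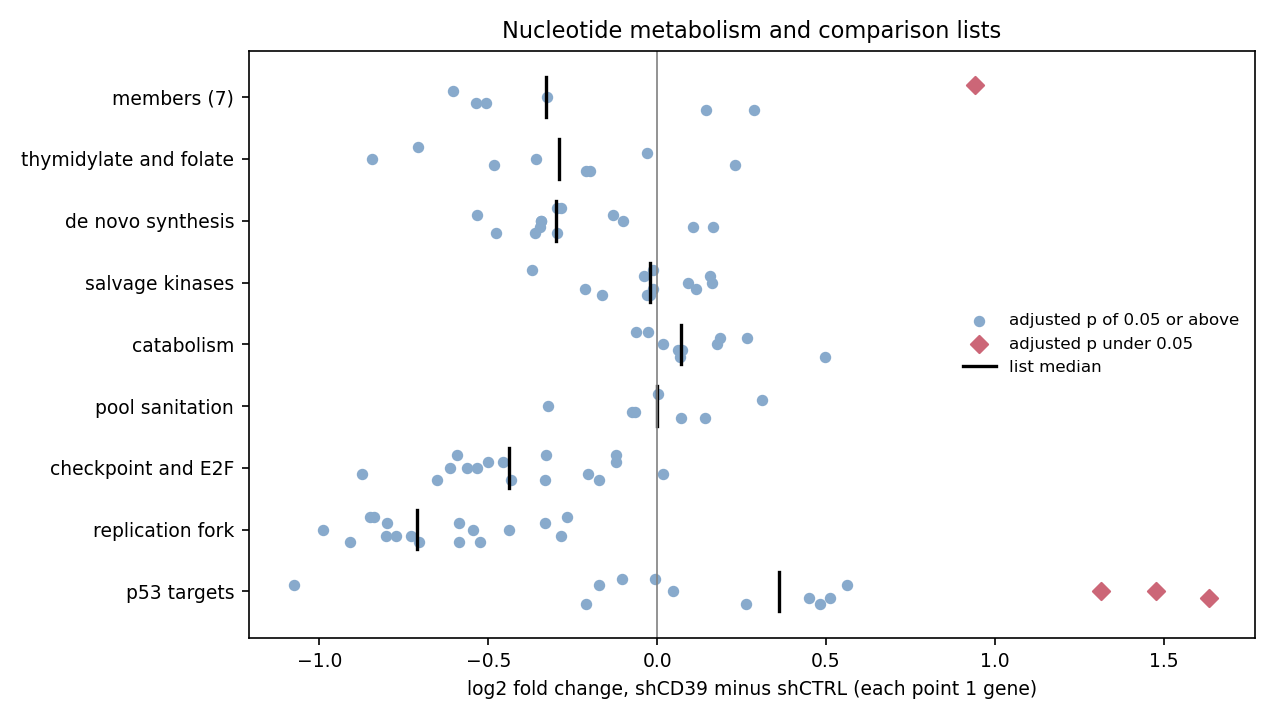
Log2 fold change, shCD39 minus shCTRL, of each measured gene (points) by list, with list medians as black lines and genes past the threshold as diamonds. The replication fork list lies wholly below 0, with a median of -0.71, and the diamonds are RRM2B, TP53INP1, PURPL and SESN1.

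The genes were set beside the lists most like them. All 17 measured genes of origin licensing and the replication fork (of 33) had lower means, where 48% of all genes had; their median was -0.71 and 0 passed by limma. At an unadjusted p under 0.05, 16 were lower, against 8.13% of all genes, and 12 fell without shCD39 array 4, against 2.1% of all genes. CDT1, which licenses origins, stood at -0.99 (limma adjusted p = 0.0849) and MCM2, a helicase subunit, at -0.91 (limma adjusted p = 0.109). On shCD39 arrays 1 to 4 the median deviation of this list from the shCTRL mean was -0.56, -0.89, -0.99 and -0.21. Array 3 was the lowest and array 4 the highest, as in RRM2 and TYMS. The order was not particular to shCD39. On shCTRL arrays 1 to 4 the list stood at -0.03, 0.10, -0.26 and 0.16, again with array 3 lowest and array 4 highest. TYMS had that order in shCTRL too, whereas RRM2 was lowest on array 3 and highest on array 2. Without shCD39 array 4 the list's median was -0.86, that of thymidylate and folate genes -0.34, of de novo synthesis -0.31 and of the regulators -0.44.

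Of 14 measured p53 targets (of 26), 3 rose, namely PURPL (1.63, limma adjusted p = 0.0193), TP53INP1 (1.48, limma adjusted p = 0.00716) and SESN1 (1.31, limma adjusted p = 0.0432), where 0.047% of all genes were called higher. The list had a median of 0.36 (0.43 without shCD39 array 4) with 9 higher and 5 lower means, and SESN2, a stress-induced sestrin, stood at -1.07 (limma adjusted p = 0.0939). Without shCTRL array 1 limma called 0 of the 14, but it then called 0 of all genes, so the loss was not particular to this list. The count was 1, TP53INP1 each time, when shCD39 array 1, shCD39 array 2 or shCTRL array 3 was dropped (0.0403%, 0.0336% and 0.0202% of all genes called). It was 5 without shCD39 array 4, where 4 rose and SESN2 fell (0.746% and 2.1% of all genes). The calls of TP53INP1, PURPL and SESN1 were known from earlier results of these data and are not independent support for that of RRM2B.

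The genes whose profile over the 8 arrays was most like that of RRM2B were MSMO1, TFEC, GLIPR1, FNDC3A and IER3, with root mean square differences of 0.096 to 0.158 log2 units after centring each gene. Of these, MSMO1, an enzyme of cholesterol synthesis (log2 fold change 0.88, limma adjusted p = 0.0295), and TFEC, a relative of MITF among transcription factors (0.85, limma adjusted p = 0.0432), rose. Most like RRM2 were OXCT1, STIL, ASF1B, KIF22 and GINS4, at 0.070 to 0.098 log2 units. OXCT1, an enzyme of ketone body use, stood at -0.58 and ASF1B, a histone chaperone used in replication, at -0.66 (limma adjusted p = 0.109 and 0.0805). The search covered 10956 genes, and the likeness is a description over arrays that share 2 groups.

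Of 24 measured markers of cell types, 0 passed the threshold by limma, and 5 had an unadjusted p under 0.05, against 14.7% of all genes. The mean log2 level of the 9 myeloid markers lay between 6.94 and 7.44 in shCD39 and between 6.69 and 6.93 in shCTRL. Their median log2 fold change was 0.10, with 7 higher and 2 lower means. CSF1R (1.36, limma adjusted p = 0.0849), LYZ (1.07) and TYROBP (1.06) had the highest values and rose without shCD39 array 4. FLT3 (-0.29) and MPO (-0.40) had lower means, and ANPEP, CD14, CD68 and SPI1 stood between 0.09 and 0.13. For T and NK cells (6 of 10 measured) the mean level was 5.06 to 5.63 in shCD39 and 5.16 to 5.43 in shCTRL, and for B and plasma cells (2 of 6) 5.13 to 5.34 and 5.23 to 5.33. Erythroid markers (3 of 7) lay at 3.70 to 4.05 and 3.68 to 3.82, and those of fibroblasts and epithelium (4 of 7) at 4.67 to 4.83 and 4.47 to 4.65. Among the markers other than myeloid, NKG7 (0.50, limma adjusted p = 0.131) had the largest change. The part of these markers in the results on deoxynucleotide genes was not tested.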

How the data were processed

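Total RNA of MOLM-14 cells was labelled and hybridised to Affymetrix arrays, per the labels' protocols. The deposited values are log2 expression per probe set, and RMA and the oligo package are named, without versions, in the submitters' processing notes; RMA sets all arrays to a shared distribution, which removes differences in total RNA. The array's model and the genome build used for it: not given in the sources used here. Medians of the 8 arrays over 53617 probe sets lay between 3.13 and 3.17; no array duplicated another. The number of arrays limits the precision.

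Of the probe sets, 16098 had 1 symbol in the platform annotation, 0 had several and 37519 are unnamed here. Symbols were updated through Entrez IDs (RefSeq, GRCh38.p14, also the source of the promoter windows). The probe set with the highest mean stood for a gene. Groups were compared with limma 3.58.1 (lmFit, eBayes) in R 4.3.3, 2-sided, with Benjamini-Hochberg adjustment over all genes; the procedure was tested on simulated data. Exact permutation tests were 2-sided over arrays. Figures used matplotlib 3.10.9.

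The genes, lists and tests were chosen with earlier results of these data known. Named were ENTPD1, the 8 genes, from each pathway and comparison list the members past the threshold (at most 4) or else the 2 with the largest change, and the 5 genes most like RRM2B and RRM2 in profile. CDK1, MYC and further genes printed with their values outside this rule (the cell type markers, SESN2) were chosen after their values were seen. Alternatives were 3 normalizations, a filter on dim genes, other handling of probe sets, a robust prior with an intensity trend, array weights, a replicate block and leaving out each array.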

Additional observations from a re-analysis of the deposited data

How the results depend on the processing

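The log2 fold changes of the 7 genes and of ENTPD1 kept their direction under every alternative run. RRM2B kept its call in 15 of 17 alternatives (0.89 to 1.00), the exceptions being all probe sets tested (0.94, limma adjusted p = 0.0505) and leaving out shCTRL array 1 (0.94, limma adjusted p = 0.0656). RRM2, DCK and TYMS passed only without shCD39 array 4, among the alternatives run. Calls among the 7 genes numbered 1, or 0 with all probe sets and 0 to 4 when arrays were left out in turn. Calls among all genes numbered 14, or 9 after quantile normalization, 67 with the filter on dim genes (7632 genes tested), 6 with all probe sets (53617 tested), 22 with the trend and robust prior, 124 with array weights and 0 to 423 when arrays were left out. Pathway genes gave 0 calls by limma (24 at an unadjusted p under 0.05), or 2 with the filter, 3 with array weights and 0 to 8 when arrays were left out. The comparison lists gave 3, or 5 with the filter, 1 with all probe sets, 9 with array weights and 0 to 17 when arrays were left out. The cause of these moves was not tested beyond the number of genes and arrays entering each. DCK minus CDA ran from -0.93 to -0.46 when arrays were left out. CDA and ENTPD1 were not among the genes kept by the filter on dim genes, so they and DCK minus CDA have no value there. Array weights, the intensity trend and all probe sets do not apply to within-array differences and were not run for them.

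Replicate numbers are shared between the groups, and whether they pair the arrays was not settled. Over all genes, deviations of same-numbered arrays correlated at -0.011, -0.037, 0.051 and 0.062 for numbers 1 to 4. Of the shCD39 arrays, only array 3 correlated best with its own number in shCTRL, and arrays 1, 2 and 4 did not. These correlations cannot exclude pairing in single genes. A block by number lowered the SE for ENTPD1 (0.25 to 0.13), TYMS (0.19 to 0.13), DCK (0.18 to 0.14) and RRM2 (0.16 to 0.13). It did not for RRM2B (0.11 in both) or CDA (0.15 to 0.16). With the replicate number as a block, limma called 6 genes, all higher, and RRM2B kept its call (adjusted p = 0.0399). Taken by number, RRM2B minus RRM2 stayed at 1.54, with an exact permutation p of 0.125, the smallest that 4 pairs allow. That p-value too was fixed by the separation of the groups in each gene.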
